A study of Mus musculus with 19 samples.

Results

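Skin bearing early basal cell carcinoma (BCC) and treated once with an ablative fractional laser (AFL) was compared with healthy skin, to see which genes were away from their healthy level 4 days after the laser. The samples were chosen by their labels as the laser group and the group without induction. They make up 10 of the 19 libraries and 8 of the 16 mice, with 3 laser-treated mice (4 libraries) and 5 healthy mice (6 libraries). All genes that passed a filter on low counts were described, 15760 of the 18521 listed. RNA came from 1 cm2 pieces of skin of female Ptch1+/- K14-CreER2 p53fl/fl mice. The healthy mice carry these same alleles: 1 working copy of the Hedgehog receptor gene Ptch1, a tamoxifen-activated Cre driven by the keratin 14 promoter, and floxed Trp53. Cre driven by this promoter acts in keratin 14 expressing cells, and whole skin also holds cells that keep Trp53.

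Induction was by 3 injections of 300 µg tamoxifen and 1 x-ray exposure of 4 Gy, which the healthy mice did not receive. Laser-treated mice 2, 7 and 11 were 326, 228 and 275 days old and 116, 80 and 126 days past induction. They had 1 laser treatment of 1 pass at a density of 5% and 40 mJ per microbeam. Healthy mouse 10 was 137 days old and mice 13, 14 and 15 were 128 days old. Mouse 16 gave a pair of libraries whose labels carry ages of 128 and 135 days, and their counts differed by far more than counting error. Age, induction, tumour and laser therefore differed together between the groups and cannot be told apart in this comparison. No sham-treated or lasered healthy mice were analysed here. Untreated BCC skin of 4 mice (3, 4, 5 and 8, aged 278 to 320 days) is given beside the results. The laser group against this BCC group tests whether the laser-treated skin stood at another distance from healthy skin than untreated tumour skin did. BCC mice 3, 4, 5 and 8 were 130, 143, 144 and 137 days past induction, each later than every laser-treated mouse. Time since induction and laser therefore cannot be told apart in that comparison. The comparisons of BCC skin and of laser-treated skin with healthy skin share the healthy mice, so their values are set side by side and nothing is drawn from their likeness.

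BCC grows from keratinocytes in which Hedgehog signalling is switched on, usually through loss of Ptch1, so that the transcription factors Gli1 and Gli2 stay active. A fractional laser burns an array of narrow channels into the skin and leaves bridges of intact tissue between them. In wounded skin, keratinocytes at the edge switch on keratins 6 and 16 and migrate, neutrophils and then monocytes enter from the blood, and fibroblasts and vessels rebuild the matrix. Type I interferon acts through transcription factors that bind a short promoter element, and switches on antiviral genes. Hair follicles of mouse skin cycle between growth and rest in large patches, and a growing patch holds far more hair shaft and pigment transcripts than a resting one. In whole tissue, fewer cells of a type and less RNA per cell cannot be told apart.

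Interferon targets and neutrophil-attracting chemokines were among the genes farthest from healthy skin, and the promoters of 4 of them are shown because they carry the binding letters of the factors known to act there. The sequences are RefSeq's for GRCm38.p6 and cover the 150 bases before the annotated start, in the direction of the gene. Capitals mark the interferon-stimulated response element, searched as GAAA, any 2 bases and GAAA, in Isg15 (chr4:156200819-156200968, minus strand) and Rsad2 (chr12:26456453-26456602, minus strand). They mark the NF-kB element, searched as GGGA, any 2 bases and TTCC, in Cxcl2 (chr5:90903749-90903898, plus strand) and Cxcl3 (chr5:90785951-90786100, plus strand).
Isg15: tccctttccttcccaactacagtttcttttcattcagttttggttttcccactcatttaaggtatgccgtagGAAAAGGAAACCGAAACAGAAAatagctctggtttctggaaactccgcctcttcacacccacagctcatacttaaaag
Rsad2: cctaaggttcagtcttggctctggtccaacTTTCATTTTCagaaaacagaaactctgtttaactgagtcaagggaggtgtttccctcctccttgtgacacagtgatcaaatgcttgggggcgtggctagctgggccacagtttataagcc
Cxcl2: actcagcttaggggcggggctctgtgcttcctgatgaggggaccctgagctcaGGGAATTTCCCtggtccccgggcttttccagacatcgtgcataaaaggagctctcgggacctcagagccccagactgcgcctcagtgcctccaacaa
Cxcl3: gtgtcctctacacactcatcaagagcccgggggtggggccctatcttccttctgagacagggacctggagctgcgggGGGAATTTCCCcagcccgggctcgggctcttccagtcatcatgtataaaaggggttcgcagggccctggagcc
In Isg15 the capitals begin 78 bases before the start and hold 3 overlapping matches. In Rsad2 they begin 120 bases before the start and lie on the opposite strand. In Cxcl2 and Cxcl3 they begin 97 and 73 bases before the start, and the capitals hold overlapping matches on both strands. Both motifs were searched on both strands, with overlaps allowed, in windows from 250 bases before to 50 after the start. The interferon element was present in 15 of the 23 genes of the interferon-stimulated list that have such a window (65.2%), against 478 (3.83%) of the 12485 tested genes with a window and 3.44% of all 32851 windows. A gene was counted once if any of its windows held a match. By that count the element was present for 89 of 956 genes that rose (9.31%) and for 5 of 143 genes that fell (3.50%). The NF-kB element was present for 4 of the 14 genes with a window in the list of inflammatory cytokines and chemokines (28.6%, namely Il6, Cxcl1, Cxcl2 and Cxcl3), against 211 (1.69%) of the tested genes with a window and 1.47% of all windows. Since the interferon list was written from known interferon targets, these shares describe the letters in the windows and are not evidence that a factor was bound.

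Library totals lay between 30203678 and 33228270 expected counts in the laser group and between 32962234 and 33556611 in the healthy group. Normalised levels are given in CPM, counts relative to the TMM-scaled library size of the mouse. "Rose", "fell" and "changed" are used of genes with an adjusted p under 0.05 in edgeR's quasi-likelihood test over all 15760 genes, and SE is the standard error of a log2 fold change. The p-values rest on the spread between mice within all 4 groups of 1 fit, which holds all 16 mice. That fit includes BCC mice treated with vismodegib, which are not described here but add to the spread. Gene lists are described by how many tested members changed and by their median log2 fold change, beside a median of 0.01 over all genes. Over all genes tested 7.95% rose and 1.29% fell, and a list count near these shares is no result about the list. List members named beyond the rule for named genes were chosen as examples after their values were seen.

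Laser-treated skin differed from healthy skin in 1456 genes, 9.24% of those tested, of which 1253 rose (7.95%) and 203 fell (1.29%). At least a 2-fold change was found for 1306 of them, and 361 rose and 18 fell by at least 8-fold. Untreated BCC skin differed from the same healthy mice in 445 genes (2.82%), with 420 higher (2.66%) and 25 lower (0.159%). Laser-treated skin differed from untreated BCC skin in 1221 genes (7.75%), with 961 higher (6.1%) and 260 lower (1.65%). No overlap between the 3 laser-treated and the 5 healthy mice was seen for 4055 genes (25.7%), 2317 higher (14.7%) and 1738 lower (11%), among them 1391 of the genes that changed. The number of changed genes depended on single mice. It was 799 without laser-treated mouse 11 and 985 without mouse 2. Falls depended on them most: 19 genes fell without mouse 11, 31 without mouse 2 and 396 without mouse 7, and 123, 88 and 102 fell without healthy mouse 10, 13 or 14. Without untreated BCC mouse 3, which is in neither group but in the same fit, 393 fell and 1799 changed. The rises numbered 780 without mouse 11. The difference between BCC and healthy skin moved from 445 genes to 798 without BCC mouse 3, 265 without BCC mouse 4, and 285 and 278 without healthy mouse 13 and 14, and that between laser-treated and BCC skin from 1221 to 597 without laser-treated mouse 11. With the libraries of mouse 16 taken as 2 mice 1573 genes changed, and without that mouse 1367.

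**Figure D1:**
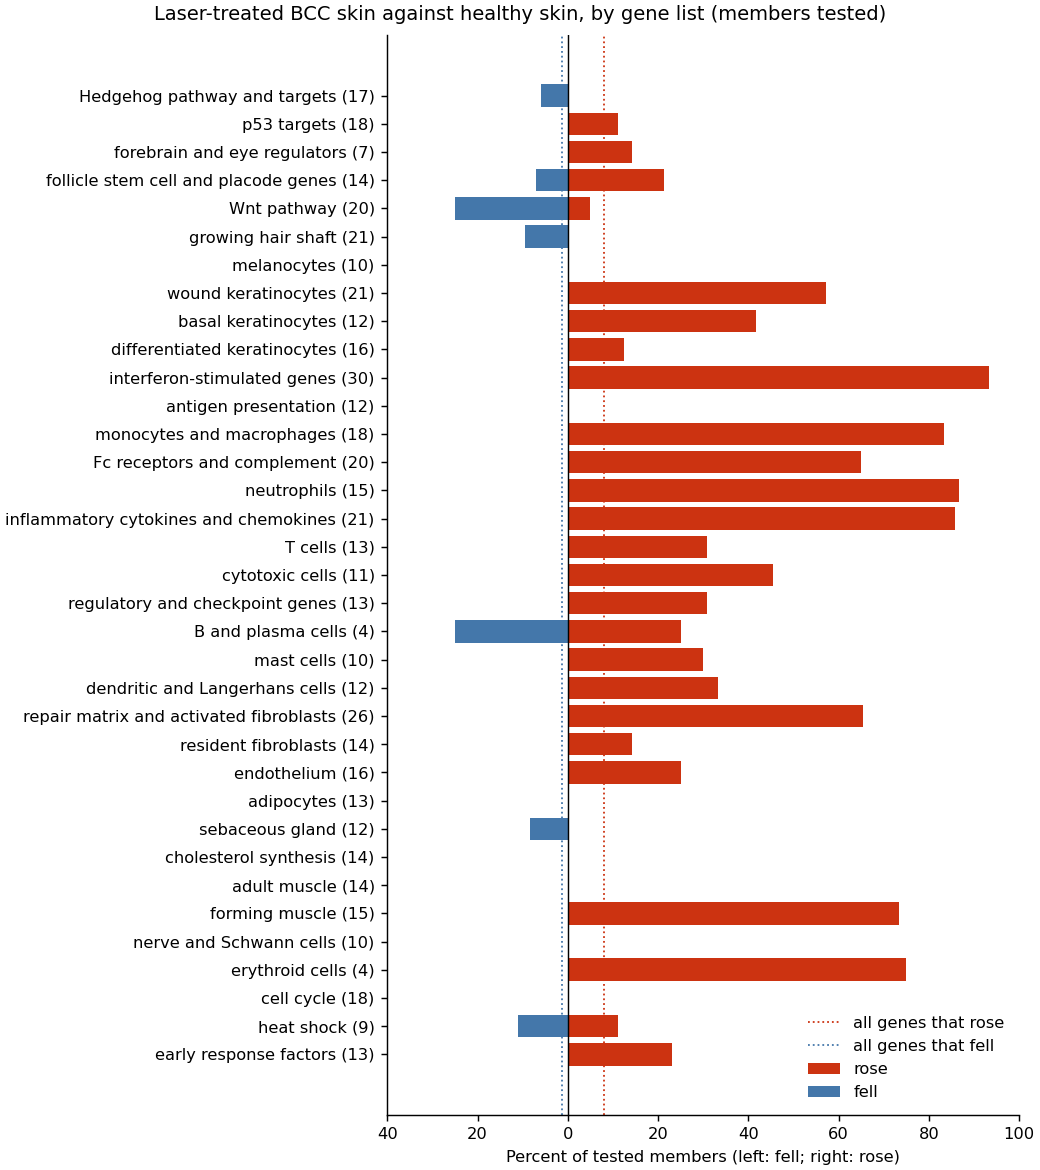
Percent of the tested members of each of 35 gene lists that rose (red, to the right) or fell (blue, to the left) in laser-treated BCC skin against healthy skin, with the number tested in brackets and the share of all genes as dotted lines. Interferon-stimulated, neutrophil, inflammatory and macrophage lists lie far to the right, while the growing hair shaft, melanocyte and adipocyte lists hold few or no called genes.

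The gene with the smallest p of all was Slfn1, a member of the interferon-inducible Schlafen family. It had 0.621, 0.583, 0.607, 1.59 and 0.781 CPM in healthy mice 10, 13, 14, 15 and 16 and 48.3, 29.2 and 53 CPM in laser-treated mice 2, 7 and 11 (log2 fold change 5.70, SE 0.43, adjusted p = 2.95e-06). All 3 laser-treated mice were far above all 5 healthy mice. Among the 10 largest rises by the naming rule were the embryonic myosin gene Myh3, the wound keratin gene Krt6b, the chemokine genes Cxcl2 and Cxcl3, the granulocyte growth factor gene Csf3, the itaconate-making enzyme gene Acod1, the stromelysin gene Mmp10, the receptor gene Mrgpra2b, the cystatin-family gene Cstdc4 and the prolactin-family gene Prl2c3. Prl2c3 held no counts in the 5 healthy mice and 12.7, 1.43 and 28.1 CPM in laser-treated mice 2, 7 and 11, at least 1220-fold higher against a floor of 3 counts over the healthy group (adjusted p = 0.00258). Its fitted log2 fold change of 12.09, which rests on a prior count, was 10.99 without mouse 11 and 9.16 in limma's voom fit. In untreated BCC mice 3, 4, 5 and 8 it had 1.62, 3.94, 1.46 and 0 CPM. Prl2c3 belongs to a cluster of near-identical prolactin-family genes, so how its reads were divided among them is uncertain. Mrgpra2b, which also has close relatives, held 3 counts in healthy skin and had 2.66, 0.122 and 32.4 CPM in the laser-treated mice, 1170-fold higher by its counts (95% counting interval 400 to 5680, adjusted p = 0.000308). Its highest value was in mouse 11 and its fitted log2 fold change of 9.33 was 6.18 without that mouse, 10.33 without healthy mouse 13, 7.76 with the replicate block and 6.71 in limma's voom fit.

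**Figure D2:**
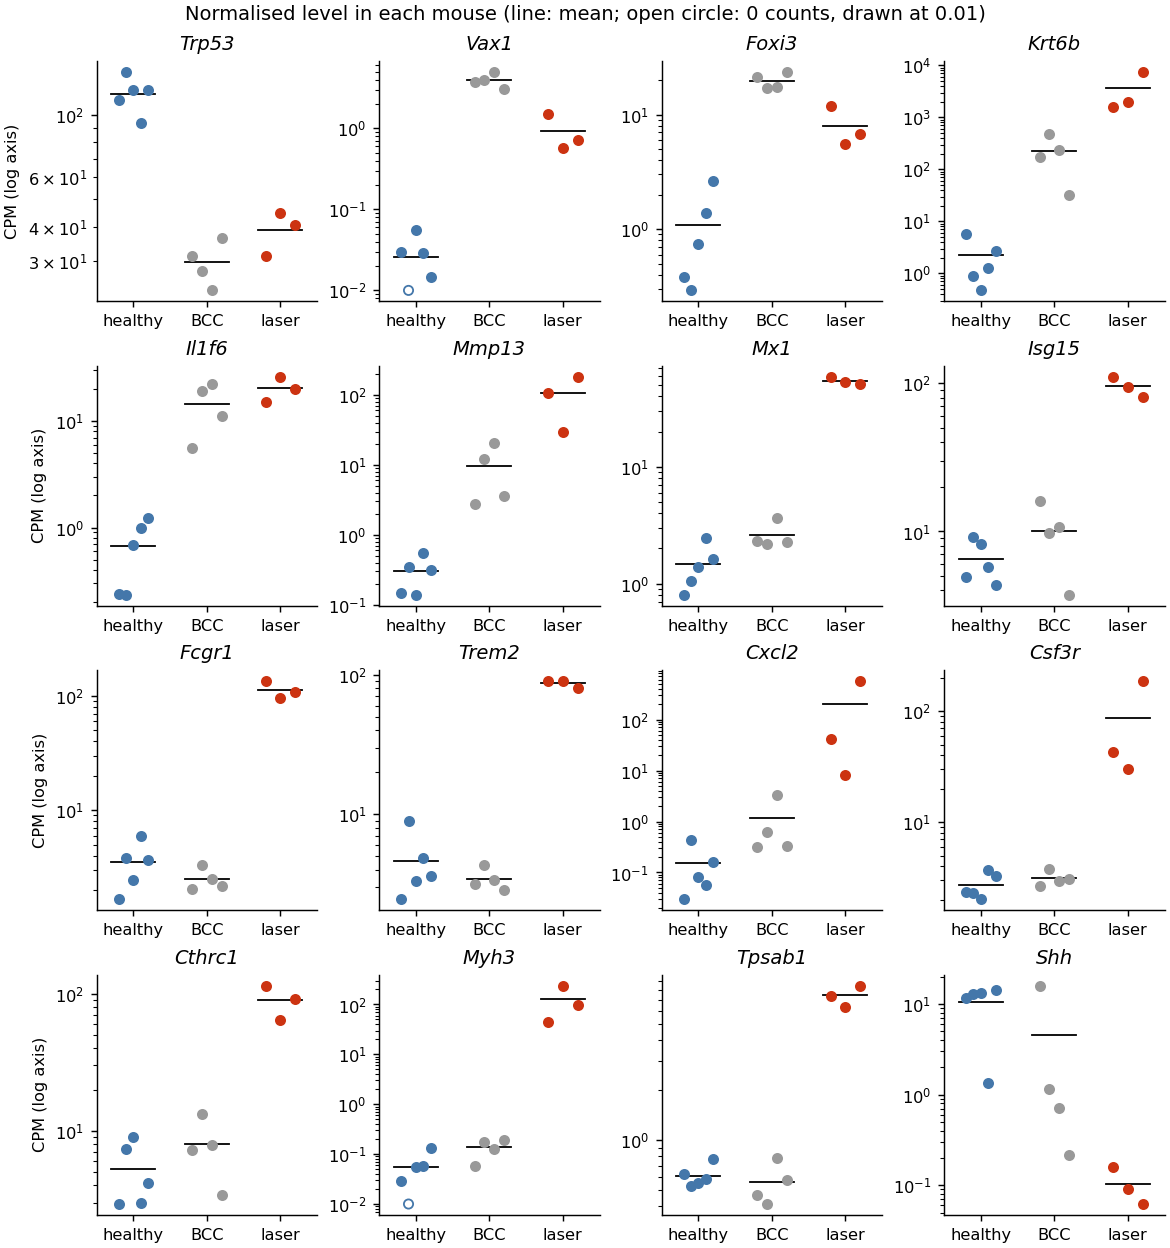
Normalised read count (CPM, log axis) of selected genes in each mouse of the healthy, untreated BCC and laser-treated BCC groups, where 1 point is 1 mouse, lines are group means and open circles are mice without a count. Mx1 and Trem2 separate the laser-treated mice from both other groups, while Trp53 is low in both induced groups.

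The engineered gene was lower in the laser-treated mice. Trp53, the floxed tumour suppressor gene, had 114, 143, 124, 94 and 123 CPM in healthy mice 10, 13, 14, 15 and 16 and 31.5, 44.9 and 40.5 CPM in laser-treated mice 2, 7 and 11. Every laser-treated mouse lay below every healthy mouse, and Trp53 fell by 1.62 on the log2 scale (SE 0.28, adjusted p = 0.00126). That call held under all 25 alternatives run, with values from -1.73 to -1.29. Untreated BCC skin had 31.5, 27.6, 23.6 and 36.3 CPM, and the laser group did not pass against it (log2 fold change 0.39, SE 0.28, adjusted p = 0.471). With 7.95% of all genes tested risen, 2 of 18 genes that p53 is known to switch on rose and 0 fell. These were Pmaip1, which encodes a death-promoting partner of Bcl2 proteins (log2 fold change 1.45, SE 0.28, adjusted p = 0.00246), and Gdf15, a secreted stress signal (log2 fold change 2.33, SE 0.49, adjusted p = 0.00504). Cdkn1a, the cell cycle inhibitor most tied to p53, had a log2 fold change of -0.27 (adjusted p = 0.675), and Mdm2, which degrades p53, one of 0.30 (adjusted p = 0.468).

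Hedgehog pathway genes were not shown to differ from healthy skin, apart from the ligand Shh. Of 17 pathway genes and targets, 0 rose and 1 fell in laser-treated skin, with a median of -0.33. In untreated BCC skin against the same healthy mice, 2 rose (1 without BCC mouse 4 or 8) with a median of 0.58, and in the laser group against BCC skin 3 fell with a median of -1.18. Ptch1, receptor and target in one, had 66.5, 66.7, 79.8, 28.1 and 80.6 CPM in healthy mice 10, 13, 14, 15 and 16. In laser-treated mice 2, 7 and 11 it had 76.4, 24.1 and 29.8 CPM. Mouse 2 lay among the healthy mice, mouse 11 was above healthy mouse 15 alone, and mouse 7 was below them all. The Ptch1 log2 fold change was -0.57 with a 95% interval of -1.48 to 0.34 (adjusted p = 0.434), or -1.25 without mouse 2. Gli1, the target most used to read the pathway, had 94.6, 103, 118, 39.8 and 118 CPM in the same healthy mice. In the laser-treated mice it had 153, 58.7 and 62.2 CPM. Mouse 2 was above all healthy mice, and mice 7 and 11 were below all of them but mouse 15. The Gli1 log2 fold change was -0.05 (95% interval -1.04 to 0.94, adjusted p = 0.958). Its sign varied with the alternatives, from -0.65 without mouse 2 to 0.51, so no direction was read from it. Gli2, the main activator of the pathway, stood at -0.17 (95% interval -0.84 to 0.49, adjusted p = 0.765) against healthy skin and was lower than in untreated BCC skin (log2 fold change -1.45, SE 0.34, adjusted p = 0.0136).

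Hhip, a surface protein that binds Hedgehog ligands and is switched on by the pathway, had 6.92, 7.43, 12.5, 5.27 and 12.3 CPM in healthy mice. In laser-treated mice 2, 7 and 11 it had 34.7, 8.32 and 9.28 CPM, so that mouse 2 was above all healthy mice and mice 7 and 11 were among them. Untreated BCC skin had 34.1, 138, 162 and 74.2 CPM. Hhip did not pass against healthy skin (log2 fold change 0.97, 95% interval -0.09 to 2.03, adjusted p = 0.237), and its value was -0.02 without mouse 2. It was lower in the laser group than in untreated BCC skin (log2 fold change -2.55, SE 0.58, adjusted p = 0.0112). These intervals still allow a rise of up to 2.03 on the log2 scale for Hhip and of up to 0.94 for Gli1. Ccnd1, which encodes cyclin D1, stood at -0.33 (adjusted p = 0.521) against healthy skin and below untreated BCC skin (log2 fold change -1.18, SE 0.32, adjusted p = 0.0347, a call that ended without BCC mouse 3, -1.05, or 4, -1.07). Shh had 11.5, 12.7, 13.1, 1.33 and 14.3 CPM in healthy mice and 0.159, 0.0915 and 0.062 CPM in the laser-treated mice, below all of them. It fell by 6.70 (SE 1.92, adjusted p = 0.0393), a call that ended in 13 of the 25 alternatives, among them leaving out any of the 3 laser-treated mice (-7.10 to -6.41) or healthy mouse 10, 13, 14 or 16 (-6.69 to -6.56) and the growing-hair score as a covariate (-4.57). Shh is made by the matrix of growing hair follicles, whose other transcripts were lower too, as given further on.

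Some genes that rose in untreated BCC skin also rose in laser-treated skin. Vax1, a transcription factor gene of the developing forebrain and eye, had 0.0296, 0, 0.0552, 0.0289 and 0.0145 CPM in healthy mice and 1.52, 0.579 and 0.714 CPM in laser-treated mice 2, 7 and 11 (log2 fold change 5.07, SE 0.54, adjusted p = 1.95e-05). All 3 laser-treated mice were above all healthy mice, at levels near 1 CPM. In untreated BCC mice it had 3.74, 3.94, 4.97 and 3.08 CPM, above all laser-treated mice, and the laser group was lower than the BCC group (log2 fold change -2.07, SE 0.47, adjusted p = 0.0117). Of 7 forebrain and eye regulators tested, Vax1 was the 1 that rose in laser-treated skin, while 3 rose in BCC skin and 2 (1 without BCC mouse 4) were lower in laser-treated than in BCC skin. For Six3, without a count in any healthy mouse, the laser-treated mice had 0.381, 0 and 0.0155 CPM, at least 7-fold higher but not passing (adjusted p = 0.103, or 0.0218 in DESeq2's Wald test), with most of its counts in mouse 2. Barhl2 was 7-fold higher by its counts (95% counting interval 1.92 to 38.3, adjusted p = 0.155) and was below its BCC level (log2 fold change -3.96, SE 0.99, adjusted p = 0.0205, or -2.65 and not called without BCC mouse 4).

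Genes of follicle stem cells and of the placodes from which follicles arise went both ways. Of 14 tested, 3 rose and 1 fell, with a median of -0.44 (1 rose without mouse 2), whereas 3 rose in BCC skin with a median of 0.48. Foxi3, a placode transcription factor gene, had 0.384, 0.292, 0.745, 1.39 and 2.65 CPM in healthy mice and 11.8, 5.58 and 6.7 CPM in laser-treated mice, above all of them (log2 fold change 2.85, SE 0.55, adjusted p = 0.00259, or 2.21 with the growing-hair score described further on as a covariate, 3.50 without healthy mouse 16 and 3.84 with the replicate block). Its values in untreated BCC mice, 21.2, 17, 17.6 and 23.5 CPM, were higher than in every laser-treated mouse, but the difference did not pass (log2 fold change -1.31, SE 0.59, adjusted p = 0.219). Lgr6, a receptor gene of follicle and epidermal stem cells, had 11.3 to 15.5 CPM in healthy mice and 47.7, 21.9 and 21 CPM in laser-treated mice (log2 fold change 1.21, SE 0.32, adjusted p = 0.0239), and stood below untreated BCC skin (log2 fold change -1.46, SE 0.36, adjusted p = 0.017). Runx1 rose as well (log2 fold change 1.05, adjusted p = 0.0143), a call that ended without mouse 2 (1.03) or mouse 11 (0.86), with library size alone as the scaling (0.99) and with the replicate block (0.91). Krt15, the keratin gene of the resting bulge, fell by 1.40 (SE 0.39, adjusted p = 0.0305), from between 1166 and 2608 to 455, 1087 and 467 CPM. Lhx2 and Sox9, which keep follicle stem cells, did not pass against healthy skin (-0.54 and -0.74, adjusted p = 0.34 and 0.193), and both were lower than in BCC skin (-2.07 and -1.41, adjusted p = 0.00232 and 0.0248), a call that ended for Sox9 without BCC mouse 3 (-1.37) or 8 (-1.43).

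**Figure D3:**
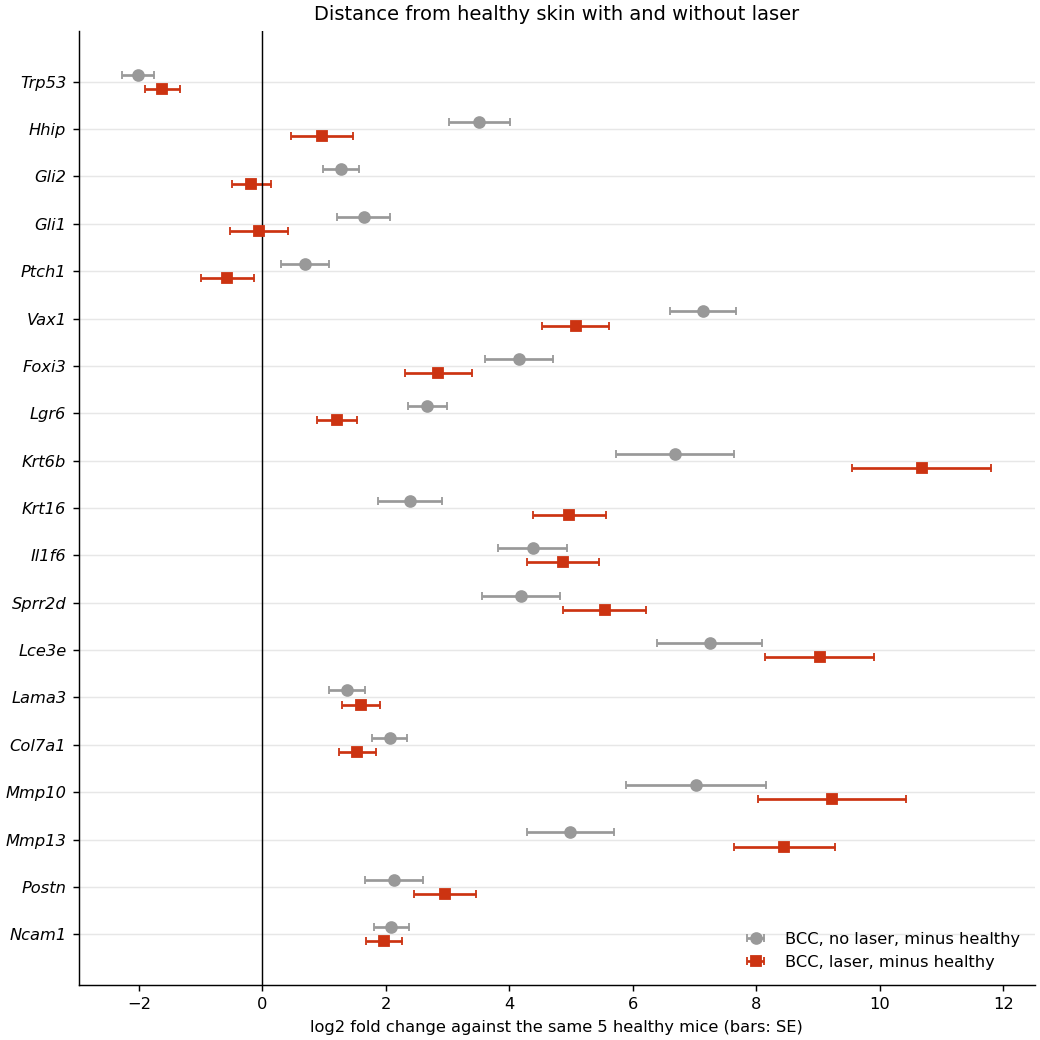
Log2 fold change from healthy skin of named genes in untreated BCC skin (grey) and in laser-treated BCC skin (red), with bars of 1 SE, where both are measured from the same 5 healthy mice. Vax1 and Hhip lie nearer to healthy skin in the laser group than in BCC skin, Krt6b, Krt16 and Mmp13 lie farther away, and Il1f6 and Lama3 lie close together.

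Wound keratinocyte genes were the epidermal genes farthest from healthy skin. Of 21 tested, 12 rose and 0 fell, with a median of 1.90; in untreated BCC skin 6 rose with a median of 0.61, and 6 were higher in laser-treated than in BCC skin. The count was 12, 13 and 11 without laser-treated mouse 2, 7 and 11. Krt6b, a keratin gene of migrating wound-edge keratinocytes, had 5.82, 0.875, 0.469, 1.27 and 2.66 CPM in healthy mice and 1561, 1934 and 7435 CPM in laser-treated mice 2, 7 and 11 (log2 fold change 10.68, SE 1.12, adjusted p = 1.81e-05). It was already raised in untreated BCC mice, at 172, 479, 232 and 31.9 CPM (log2 fold change 6.68, SE 0.95, adjusted p = 0.000845, or 6.03 without BCC mouse 4), and was higher still after the laser (log2 fold change 3.99, SE 0.95, adjusted p = 0.0148, or 4.65 without that mouse). Each laser-treated mouse stood above each BCC mouse, and mouse 11 was highest. The value was 9.59 without mouse 11 and 11.41 without healthy mouse 10. Krt6b and Krt6a are close copies, so their reads may have been divided with error. Krt6a itself stood at 1.90 (adjusted p = 0.052). Krt16, which pairs with keratin 6, had 70.6, 54.4, 34.8, 109 and 41.7 CPM in healthy mice and 978, 1256 and 3627 CPM in laser-treated mice (log2 fold change 4.97, SE 0.58, adjusted p = 4.2e-05, or 4.14 without mouse 11) and was above BCC skin as well (log2 fold change 2.59, SE 0.59, adjusted p = 0.0109).

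For some wound keratinocyte genes the test did not separate the laser group from untreated BCC skin. Il1f6, the gene of interleukin 36 alpha, had 0.236, 0.233, 0.69, 0.984 and 1.24 CPM in healthy mice, 5.59, 19, 22.3 and 11.2 CPM in BCC mice and 15, 26.1 and 20.1 CPM in laser-treated mice (log2 fold change 4.87, SE 0.58, adjusted p = 4.47e-05, or 3.62 with the growing-hair covariate), and the laser and BCC groups overlapped (log2 fold change 0.49, SE 0.55, adjusted p = 0.687). The small proline-rich gene Sprr2d rose (log2 fold change 5.55, SE 0.67, adjusted p = 5.66e-05), with a difference from BCC skin that did not pass (1.36, adjusted p = 0.232). Lce3e of the late cornified envelope genes, which serve barrier repair, was at 0 to 0.0579 CPM in healthy mice and 9.61, 12.8 and 12.1 CPM in laser-treated mice (log2 fold change 9.03, SE 0.89, adjusted p = 1.44e-05, or 8.15 with the growing-hair covariate and 9.66 without healthy mouse 15), against 1.71, 6.76, 4.57 and 0.354 CPM in BCC mice (log2 fold change 1.78, SE 0.65, adjusted p = 0.115, or 2.38, not called either, without BCC mouse 4). Plaur, the urokinase receptor gene, had 5.17 to 10.3 CPM in healthy mice, 6.12 to 10.3 in BCC mice and 32.2, 32.9 and 136 in laser-treated mice (log2 fold change 3.11, SE 0.40, adjusted p = 9.59e-05), and was higher than in BCC skin (log2 fold change 3.09, SE 0.44, adjusted p = 0.000327). Hmga2 (4.04), Lcn2 (4.08), Slpi (5.05) and Il1f9 (2.62) rose too. Krt17, often raised in wounds and in BCC, stood at -0.66 (adjusted p = 0.396). Of the 21 genes tested 18 were higher than in healthy skin, and the lowest of the list stood at -4.16 without passing.

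Basal keratinocytes, defined by keratins 5 and 14 and the anchoring proteins of the basement membrane, had 5 of 12 genes risen and 0 fallen with a median of 0.35, and 2 rose without mouse 11 and 3 with the growing-hair covariate. Lama3, for a laminin chain of the basement membrane, rose by 1.60 (adjusted p = 0.00245), or 1.02 without mouse 11, which ended the call. Col7a1, the anchoring fibril collagen gene, rose from between 47.5 and 106 to between 184 and 254 CPM (log2 fold change 1.54, SE 0.29, adjusted p = 0.00247). Krt14, which drives the Cre of this strain, rose (log2 fold change 1.63, SE 0.39, adjusted p = 0.0121) while its partner Krt5 stood at -0.21 (adjusted p = 0.722). Of 16 differentiated keratinocyte genes 2 rose, where 7.95% of all genes tested rose. Casp14, a protease gene of the cornified layer, rose from between 51.5 and 106 to 219.7, 442 and 278 CPM (log2 fold change 2.09, SE 0.33, adjusted p = 0.000561). Krt1 rose too (2.51, adjusted p = 0.0112), a call that ended without mouse 7 (1.44).

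Interferon-stimulated genes rose almost as a whole list and evenly in the 3 laser-treated mice. Of 30 tested, 28 rose and 0 fell, with a median of 3.54; in untreated BCC skin 0 of them changed against the same healthy mice, with a median of 0.44 (1 rose without BCC mouse 8), and 26 were higher in laser-treated than in BCC skin. The count was 27, 28 and 28 without laser-treated mouse 2, 7 or 11. The summed level of the list was 271.6 to 598.9 CPM in healthy mice and 2213 to 3250 CPM in laser-treated mice. Mx1, a GTPase gene that blocks viruses and answers to type I interferon, had 0.798, 1.05, 1.38, 2.46 and 1.62 CPM in healthy mice, 2.32, 2.17, 3.64 and 2.26 CPM in BCC mice and 59.1, 53.5 and 51 CPM in laser-treated mice. Healthy and BCC mice were at like low levels, and the laser-treated mice were within a narrow band above them (log2 fold change 5.22, SE 0.40, adjusted p = 2.95e-06; against BCC skin log2 fold change 4.39, adjusted p = 2.2e-05).

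Irf7, the factor that amplifies interferon production, had 13.8, 20.9, 15.5, 16.1 and 10.2 CPM in healthy mice and 267, 283 and 154 CPM in laser-treated mice (log2 fold change 3.94, SE 0.34, adjusted p = 6.31e-06, or 4.67 with the growing-hair covariate). Isg15, the ubiquitin-like modifier whose promoter is printed above, had 4.94, 9.21, 8.25, 5.79 and 4.37 CPM in healthy mice and 111, 94.2 and 81.2 CPM in laser-treated mice (log2 fold change 3.87, SE 0.42, adjusted p = 2.04e-05). Every laser-treated mouse was above every healthy mouse for both genes. Rsad2, the antiviral enzyme viperin, had 0.491 to 1.04 CPM in healthy mice and 38.1, 38 and 43.5 CPM in laser-treated mice (log2 fold change 5.76, SE 0.52, adjusted p = 8.41e-06), and Ifi44 0.0887 to 0.608 and 24.8, 20.9 and 21.5 CPM (log2 fold change 6.03, SE 0.53, adjusted p = 7.75e-06). The members that did not pass were Gbp2 (1.56, adjusted p = 0.0682) and Ifi27l2a (1.32, adjusted p = 0.237). Cxcl10, the interferon-induced chemokine that draws T cells, rose from between 0.266 and 0.81 to between 7.01 and 8.69 CPM (log2 fold change 4.03, SE 0.43, adjusted p = 1.85e-05). Antigen presentation genes did not change in any of the 12 tested, with a median of 0.28, and B2m stood at 1.08 (adjusted p = 0.177). Which type of interferon acted was not tested.

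Monocyte and macrophage genes rose in most of their list. Of 18 tested, 15 rose and 0 fell, with a median of 2.63, against 0 in untreated BCC skin with a median of -0.49. The summed level was 1032 to 1344 CPM in healthy mice and 4312 to 6204 CPM in laser-treated mice. Trem2, a lipid-sensing receptor gene of tissue macrophages, had 2.45, 8.98, 3.34, 4.83 and 3.64 CPM in healthy mice and 89.5, 89.9 and 80 CPM in laser-treated mice 2, 7 and 11 (log2 fold change 4.22, SE 0.43, adjusted p = 1.73e-05). Cd68, the lysosomal marker, had 26.6, 54.3, 42.3, 77.5 and 65.7 CPM and 318, 361 and 313 CPM (log2 fold change 2.63, SE 0.27, adjusted p = 1.76e-05). The laser-treated values of both genes were close to each other and far above the healthy ones. Ly6c2, a marker of monocytes newly arrived from blood, rose by 5.25 (adjusted p = 3.88e-05) and Chil3, a chitinase-like gene, from between 0.0583 and 0.207 to between 11.4 and 33.8 CPM (log2 fold change 7.23, adjusted p = 6.2e-05). Spp1, the osteopontin gene, had 95.3, 77.2 and 416 CPM, highest in mouse 11, against 4.29 to 15.8 in healthy mice (log2 fold change 4.41, SE 0.60, adjusted p = 0.000144). Arg1 (1.74, adjusted p = 0.0623), the resident macrophage marker Cd163 (0.91, adjusted p = 0.172) and Gpnmb (-0.22, adjusted p = 0.911) did not pass.

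Receptors that bind antibodies and complement rose beside them, with 13 of 20 genes risen, 0 fallen and a median of 1.89. Fcgr1, the high-affinity receptor gene for IgG, had 1.66, 3.85, 2.46, 5.99 and 3.66 CPM in healthy mice and 135, 96.7 and 109 CPM in laser-treated mice (log2 fold change 5.01, SE 0.40, adjusted p = 2.95e-06, or 4.31 with the growing-hair covariate). C3ar1, the receptor gene for the complement fragment C3a, had 6.89, 11.6, 8.53, 15.8 and 11.6 CPM and 243, 150 and 238 CPM (log2 fold change 4.27, SE 0.35, adjusted p = 2.95e-06, or 3.63 with that covariate). No laser-treated mouse was near the healthy range for either. The C1q subunits that start the classical complement path rose by less, with log2 fold changes of 1.65 for C1qa, 2.02 for C1qb and 1.90 for C1qc. C3 and C4b, the plasma components that C1q acts through, stood at -0.12 and 0.30 (adjusted p = 0.896 and 0.692).

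Neutrophil genes rose in 13 of 15 tested with 0 fallen and a median of 6.39, but unevenly. Their summed level was 412, 243.6 and 3243 CPM in laser-treated mice 2, 7 and 11 and 56.3 to 106 CPM in healthy mice. All laser-treated mice were above all healthy mice, and mouse 11 stood far above the other laser-treated mice. Without mouse 11 the median was 4.06 and 11 rose. Csf3r, the receptor gene for granulocyte growth factor, had 2.37, 2.3, 2.02, 3.68 and 3.3 CPM in healthy mice and 43, 30.2 and 187 CPM in laser-treated mice (log2 fold change 4.98, SE 0.54, adjusted p = 2.09e-05, or 3.70 without mouse 11). Cxcr2, through which neutrophils follow chemokines, had 0.35 to 0.769 CPM in healthy mice and 11.9, 5.21 and 107 CPM in laser-treated mice (log2 fold change 6.32, SE 0.79, adjusted p = 7.41e-05, or 4.00 without mouse 11, 5.50 with the replicate block and 5.30 in limma's voom fit). Trem1, an amplifier of neutrophil activation, had 19, 3.23 and 151 CPM (log2 fold change 9.02, SE 1.16, adjusted p = 0.000103, or 6.59 without mouse 11, 7.88 with the block and 8.03 in limma). Ly6g, which marks mouse neutrophils and little else, held no counts in healthy skin and 0.0951, 0.0305 and 1.86 CPM in laser-treated mice, at least 66.8-fold higher (adjusted p = 0.035). The alarmin genes S100a8 and S100a9, which keratinocytes also make when stressed, rose by 5.67 and 7.05 (adjusted p = 0.00651 and 0.00182).

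**Figure D4:**
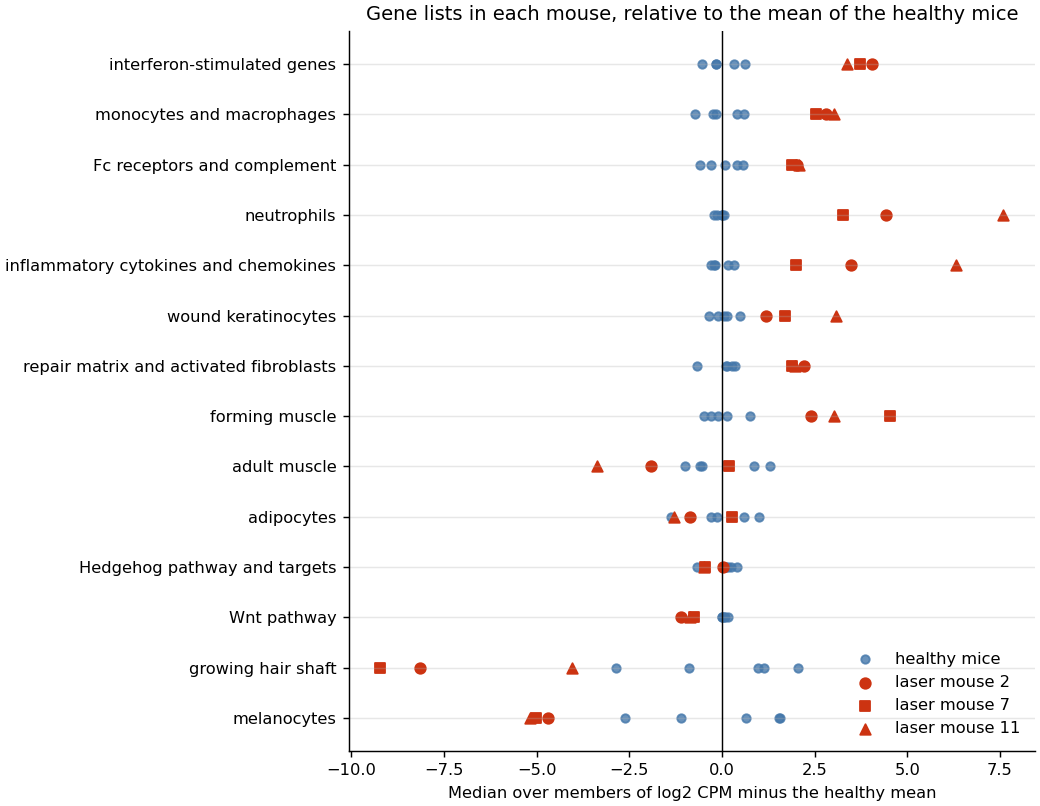
Median over the tested members of a list of log2 CPM minus the mean of the healthy mice (horizontal axis), for each laser-treated mouse (red, by shape) and each healthy mouse (blue). Interferon and macrophage lists lie close together in the 3 laser-treated mice, while neutrophil and inflammatory lists are highest in mouse 11 and forming muscle is highest in mouse 7.

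The same order of mice was seen for inflammatory cytokines and chemokines. Of 21 tested, 18 rose and 0 fell, with a median of 4.97 that was 2.77 without mouse 11, when 15 rose. The summed levels were 387.8, 124.7 and 2505 CPM in laser-treated mice 2, 7 and 11 and 23.33 to 42.84 CPM in healthy mice. Cxcl2, a neutrophil chemokine gene, had 0.0296, 0.437, 0.0828, 0.0579 and 0.159 CPM in healthy mice and 40.9, 8.08 and 567 CPM in laser-treated mice (log2 fold change 10.36, SE 1.58, adjusted p = 0.000598), or a log2 fold change of 7.24 without mouse 11 and 11.08 without healthy mouse 13. Cxcl3, its neighbour on chromosome 5, had 0 to 0.174 CPM and 6.15, 0.671 and 171 CPM (log2 fold change 9.72, SE 1.52, adjusted p = 0.000577, or 5.55 without mouse 11). Csf3, which drives the release of neutrophils from bone marrow, had 1.52, 0.427 and 54.5 CPM (log2 fold change 9.65, SE 1.54, adjusted p = 0.000581), or 5.32 without mouse 11 and 11.02 without healthy mouse 13. For all 3 genes mouse 11 was highest and mouse 7 lowest of the laser-treated mice, and the calls stood without mouse 11. With the replicate block the values were 8.70 for Cxcl2, 8.12 for Cxcl3 and 7.46 for Csf3, and in limma's voom fit 9.19, 7.62 and 7.14.

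Osm, the oncostatin M gene that makes keratinocytes migrate, had 0.248 to 0.839 CPM in healthy mice and 8.09, 6.28 and 52.9 CPM in laser-treated mice (log2 fold change 5.38, SE 0.61, adjusted p = 3.24e-05, or 3.70 without mouse 11). Ccl3, a chemokine gene for monocytes, had 17.5, 4.88 and 179 CPM (log2 fold change 8.51, SE 1.06, adjusted p = 7.04e-05, or 5.88 without mouse 11, 7.30 with the block and 7.35 in limma). Il24, a cytokine of the interleukin 20 family that acts on epithelium, held 2 counts in healthy skin and had 3.84, 0.671 and 16.4 CPM in laser-treated mice, 970-fold higher by its counts (95% counting interval 268 to 8020, adjusted p = 9.59e-05, and a fitted log2 fold change of 9.11, or 7.41 without mouse 11 and 7.50 in limma). Acod1, switched on in activated myeloid cells, had 9.39, 0.976 and 125 CPM against 0 to 0.146 in healthy mice (log2 fold change 9.56, SE 1.32, adjusted p = 0.000184, or 6.39 without mouse 11, 8.44 with the block and 8.00 in limma). Il1b (6.29), Il6 (4.49), Tnf (3.08) and Ccl2 (3.14), the classical early cytokine and chemokine genes, all rose. Il17a held 1 count in healthy skin and did not pass (ratio 6.46, counting interval 0.639 to 318, adjusted p = 0.349). Cstdc4, a cystatin-family gene with near-identical neighbours, followed the order of the neutrophil genes with 4.57, 1.07 and 52.7 CPM in mice 2, 7 and 11 (log2 fold change 9.74, SE 1.57, adjusted p = 0.000682), or 6.90 without mouse 11, 10.38 without healthy mouse 13, 8.39 with the block and 7.98 in limma.

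T cell genes were near healthy levels as a list, while 5 of 11 genes of killer cells rose. Of 13 T cell genes, 4 rose and 0 fell with a median of -0.08, and without mouse 2, 7 or 11 the count was 0, 2 and 2, and without healthy mouse 13, 14 or 16 it was 2. The summed level overlapped, at 51.58 to 102.4 CPM in healthy mice and 58.55 to 90.35 CPM in laser-treated mice. The chains of the T cell receptor complex did not pass, with Cd3e at -1.36 (adjusted p = 0.133), Cd3d at -0.26 (adjusted p = 0.771) and Cd3g at -0.93 (adjusted p = 0.345). Cd8b1 (2.46, adjusted p = 0.00748, or 2.12 without mouse 2, which ended the call), Cd28 (1.84, adjusted p = 0.0107, or 1.36 without mouse 2, which ended it too), Il7r (2.07) and Cd4 (1.22) rose. Cd4 is also carried by some dendritic cells, and Il7r by innate lymphoid cells.

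Of 11 genes of cytotoxic and natural killer cells, 5 rose and 0 fell with a median of 1.97, and 3, 4 and 3 rose without mouse 2, 7 or 11 and 3 without healthy mouse 10, 13, 14 or 15. In limma's voom fit 3 rose, with a filter of 1 CPM in 3 mice 2, and with the growing-hair covariate 2 rose and 2 fell. Gzmb, the granzyme B gene, had 0.503, 0.35, 0.359, 0.839 and 0.781 CPM in healthy mice and 10.7, 11.9 and 4.41 CPM in laser-treated mice (log2 fold change 3.97, SE 0.58, adjusted p = 0.000247, or 2.54 with that covariate). Gzma had 0 to 0.173 CPM and 2.6, 2.71 and 0.791 CPM (log2 fold change 4.33, SE 0.72, adjusted p = 0.000754, or 3.39 with it), and Ncr1, which marks natural killer cells, 0.0828 to 0.266 and 2.09, 1.92 and 0.512 CPM (log2 fold change 2.82, SE 0.55, adjusted p = 0.00299). For all of them mouse 11 had the lowest of the laser-treated values, the reverse of the neutrophil genes. Prf1, which makes the pore for granzymes, stood at -1.18 (adjusted p = 0.211). Among 13 regulatory and checkpoint genes 4 rose (2 without mouse 11) with a median of 1.17: Il10 (3.61, adjusted p = 0.00275), Entpd1 (1.50, adjusted p = 0.00343), Cd274 for PD-L1 (1.79, adjusted p = 0.0101) and Havcr2 (1.22, adjusted p = 0.0474). With the growing-hair score as a covariate, 0 of the checkpoint genes rose, and 1 of the T cell genes rose and 4 fell. Foxp3 of regulatory T cells (0.02, adjusted p = 0.982) and Pdcd1 (1.33, adjusted p = 0.0974) did not pass. Of 4 B and plasma cell genes, Cd79b rose (2.65, adjusted p = 0.00335) and Blk fell (fell by 1.72, adjusted p = 0.0489, or -2.92 with the growing-hair covariate, and not called in 14 of the 25 alternatives, among them when any 1 laser-treated mouse, -1.93 to -1.42, or healthy mouse 13, 14, 15 or 16, -1.80 to -1.44, was left out).

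Mast cell genes rose in 3 of 10 with a median of 0.61, and these were Tpsab1, Hdc and Fcer1a. Tpsab1, a tryptase gene, had 0.621, 0.525, 0.552, 0.579 and 0.766 CPM in healthy mice and 7.39, 6.34 and 8.48 CPM in laser-treated mice (log2 fold change 3.59, SE 0.29, adjusted p = 2.95e-06). The 5 healthy values and the 3 laser-treated values each lay in a narrow band. Hdc, which makes histamine in mast cells, basophils and neutrophils, had 43.9, 25.4 and 323 CPM in mice 2, 7 and 11 (log2 fold change 4.01, SE 0.63, adjusted p = 0.000483, or 2.05 without mouse 11 and 3.30 in limma), and Fcer1a rose by 3.80 (adjusted p = 0.000855). Cma1 (0.93, adjusted p = 0.189), Cpa3 (0.67, adjusted p = 0.474) and Mcpt4 (0.23, adjusted p = 0.802), made by connective tissue mast cells, did not pass. Of 12 dendritic and Langerhans cell genes, 4 rose (2 without mouse 7, mouse 11 or healthy mouse 10 or 13), among them the integrin gene Itgax (1.83, adjusted p = 0.00115) and Siglech of plasmacytoid dendritic cells, known as strong makers of interferon (log2 fold change 2.80, SE 0.56, adjusted p = 0.00377, or 3.40 with the replicate block and 1.95 with the growing-hair score as a covariate, which ended the call). Cd207, which defines Langerhans cells, stood at -0.82 (adjusted p = 0.28).

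Matrix repair genes were high in laser-treated skin, with 17 of 26 risen, 0 fallen and a median of 1.86, against 4 risen in untreated BCC skin (2 without BCC mouse 4) with a median of 0.49. Their summed level was 5165 to 13190 CPM in healthy mice and 30000 to 34630 CPM in laser-treated mice. Mmp13, a collagenase gene, had 0.148, 0.35, 0.138, 0.55 and 0.318 CPM in healthy mice, 2.75, 12.1, 20.3 and 3.6 CPM in BCC mice and 108, 29.5 and 183 CPM in laser-treated mice (log2 fold change 8.46, SE 0.81, adjusted p = 1.23e-05, or 7.77 without mouse 11). All laser-treated mice were above all BCC mice, which were above all healthy mice, and the difference from BCC skin passed (log2 fold change 3.47, SE 0.71, adjusted p = 0.00561, or 4.09 without BCC mouse 5). Mmp10, a stromelysin gene of wound-edge keratinocytes, had 0 to 0.0868 CPM in healthy mice and 17.1, 2.32 and 30.5 CPM in laser-treated mice (log2 fold change 9.23, SE 1.20, adjusted p = 9.74e-05), or 8.39 without mouse 11, 8.55 in limma and 10.16 without healthy mouse 15, and did not pass against BCC skin (log2 fold change 2.20, SE 0.91, adjusted p = 0.175).

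Col8a1, a short-chain collagen gene of remodelling tissue, had 5.56, 4.49, 6.54, 5.62 and 4.48 CPM in healthy mice and 42.9, 38.1 and 69.7 CPM in laser-treated mice (log2 fold change 3.23, SE 0.31, adjusted p = 1.23e-05). Cthrc1, a marker of activated fibroblasts, had 2.93, 7.38, 9, 2.98 and 4.16 CPM and 114, 64.8 and 91.2 CPM (log2 fold change 4.09, SE 0.51, adjusted p = 7.64e-05). For both genes the laser-treated mice stood well above all healthy mice. Tnc, the tenascin C gene of early wound matrix, rose from between 52.7 and 199 to between 647 and 1779 CPM (log2 fold change 3.31, SE 0.43, adjusted p = 9.59e-05), and Timp1, an inhibitor of matrix proteases, from between 2.4 and 7.4 to 109, 69.2 and 399 CPM, highest in mouse 11 (log2 fold change 5.22, SE 0.74, adjusted p = 0.000219). Postn, the periostin gene, rose to 3747, 1790 and 2882 CPM from 249 to 476 (log2 fold change 2.96, SE 0.50, adjusted p = 0.000897); in BCC mice it had 496, 2492, 2506 and 867 CPM and the laser group did not pass against them (0.82, adjusted p = 0.403). The fibrillar collagen genes were less clear: Col3a1 rose (log2 fold change 1.72, SE 0.48, adjusted p = 0.0319), but Col1a1 (1.52, adjusted p = 0.0803) and Col1a2 (1.51, adjusted p = 0.0524) did not pass. Acta2, the myofibroblast actin gene, stood at -0.38 (adjusted p = 0.497).

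Of 14 resident fibroblast genes 2 rose, where 7.95% of all genes tested rose. Sfrp2, a secreted Wnt modulator, had 3.16, 9.24, 11.8, 12.3 and 15.9 CPM in healthy mice and 27.4, 32.2 and 98.2 CPM in laser-treated mice (log2 fold change 2.33, SE 0.49, adjusted p = 0.00526), and its call ended without mouse 11 (1.47). Pdgfra (1.20, adjusted p = 0.0356) lost its call in 9 of the 25 alternatives, among them without mouse 2 (1.26), mouse 11 (0.78) or healthy mouse 10, 13 or 14 (1.05 to 1.20). Endothelial genes rose in 4 of 16 with a median of 0.86, and in 5, 2 and 1 of them without mouse 2, 7 or 11. Aplnr, the apelin receptor gene of sprouting veins, had 5.23, 8.34, 5.44, 11.7 and 10 CPM in healthy mice and 25.7, 31.5 and 38.1 CPM in laser-treated mice, above all of them (log2 fold change 1.96, SE 0.35, adjusted p = 0.00151). Its ligand gene Apln rose by 1.94 (adjusted p = 0.0139, not called without mouse 11, 1.81), and the junction genes Pecam1 and Cdh5 by 1.34 and 1.39 (adjusted p = 0.0159 and 0.0431). The summed endothelial level was 191.1 to 426.9 CPM in healthy mice and 387.8 to 826.2 CPM in laser-treated mice.

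Erythroid genes, whose transcripts in skin come from young red cells in blood, rose in 3 of 4 with a median of 2.15. The remaining member stood at -3.92 and did not pass. Without mouse 2, 0 of 4 rose. Hba-a1 had 131, 118, 317, 108 and 133 CPM in healthy mice and 1191, 409 and 604 CPM in mice 2, 7 and 11 (log2 fold change 2.19, SE 0.47, adjusted p = 0.00586, or 1.65 without mouse 2). Hmox1, which breaks down haem and answers to oxidative stress, had 112, 69, 68.5, 77.8 and 64.8 CPM in healthy mice and 169, 344 and 533 CPM in laser-treated mice (log2 fold change 2.16, SE 0.31, adjusted p = 0.000261). All laser-treated mice exceeded all healthy mice, and the order among them was not that of Hba-a1. Of 9 heat shock genes 1 rose and 1 fell: Hmox1, and Hspa1a, which fell by 1.08 (adjusted p = 0.046), a call that ended in 14 of the 25 alternatives, among them without mouse 2 (-0.83), mouse 11 (-1.01) or any healthy mouse (-1.15 to -1.05). Without mouse 7, 3 heat shock genes fell. Of 13 early response factors 3 rose, among them Fosl1, a wound-edge factor of the AP-1 family (log2 fold change 2.66, SE 0.48, adjusted p = 0.00153, or 1.71 without mouse 11), and Atf3 (1.89, adjusted p = 0.00929), whose call ended without mouse 11 (1.72).

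Genes of forming muscle fibres rose in 11 of 15 with 0 fallen and a median of 3.96. Against untreated BCC skin 13 were higher. The summed level was 25.9 to 50.58 CPM in healthy mice and 229.2, 1022 and 361.7 CPM in laser-treated mice 2, 7 and 11. Myh3, the embryonic myosin gene, had 0.0296, 0, 0.0552, 0.0579 and 0.13 CPM in healthy mice, 0.0579, 0.176, 0.124 and 0.191 CPM in BCC mice and 44.1, 238 and 98.5 CPM in laser-treated mice (log2 fold change 10.91, SE 1.19, adjusted p = 2.75e-05), or 8.74 with the growing-hair score as a covariate, 10.10 without mouse 7, 11.66 without healthy mouse 16 and 12.34 with the replicate block. Mymk, which lets muscle precursors fuse, had 0.0276 to 0.0578 CPM in healthy mice and 2.57, 24.8 and 4.81 CPM in laser-treated mice (log2 fold change 8.06, SE 0.95, adjusted p = 4.16e-05, or 5.94 with the covariate, 6.53 without mouse 7 and 7.10 in limma). Myl4, an embryonic light chain gene, had 26.3, 108 and 29.4 CPM (log2 fold change 5.30, SE 0.62, adjusted p = 3.88e-05, or 3.51 with the covariate and 4.33 without mouse 7). The gene set was highest in mouse 7 throughout, with healthy and BCC mice near 0 for Myh3.

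Myog, the factor that commits precursors to become fibres, rose from between 0.976 and 4.15 to 9.96, 63.4 and 23.2 CPM (log2 fold change 3.96, SE 0.87, adjusted p = 0.00714). Ncam1, also carried by nerves, rose (1.97) and was raised in BCC skin too (2.09). The precursor genes Pax7 (1.46, adjusted p = 0.281), Myf5 (1.84, adjusted p = 0.183) and Myod1 (2.17, adjusted p = 0.145) did not pass. Adult muscle genes did not change in any of the 14 tested. Their level may turn partly on how much of the muscle layer under the skin was in the piece, which was not tested. Their median was -1.31, beside -1.55 in untreated BCC skin against the same healthy mice. Without mouse 7, 4 of them fell, and 3 fell in limma's voom fit. Their summed level was 3040, 14710 and 961.2 CPM in laser-treated mice 2, 7 and 11 and 7055 to 33250 CPM in healthy mice, so mouse 7 lay within the healthy range and mice 2 and 11 below it. Ckm, the muscle creatine kinase gene, stood at -1.81 (adjusted p = 0.149). The part of muscle content in the forming-muscle values was not tested.

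Growing hair shaft and melanocyte genes were the lists with the lowest medians against healthy skin. The growing-hair score, the mean log2 CPM of 21 hair shaft genes, was 0.271, -0.947 and 3.6 in laser-treated mice 2, 7 and 11 and 9.59, 8.88, 8.71, 6.95 and 4.11 in healthy mice 10, 13, 14, 15 and 16. Untreated BCC mice 3, 4, 5 and 8 had scores of 8.57, 2.39, 1.06 and 3.03. With libraries summed by mouse, the laser-treated and healthy mice did not overlap, and mouse 11 and mouse 16 came near each other. The pair of libraries of mouse 16 had scores of 4.96 and 0.0589, and the lower score lay within the range of the laser-treated mice. Hair phase changes with age, and age, hair phase and group cannot be told apart here.

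**Figure D5:**
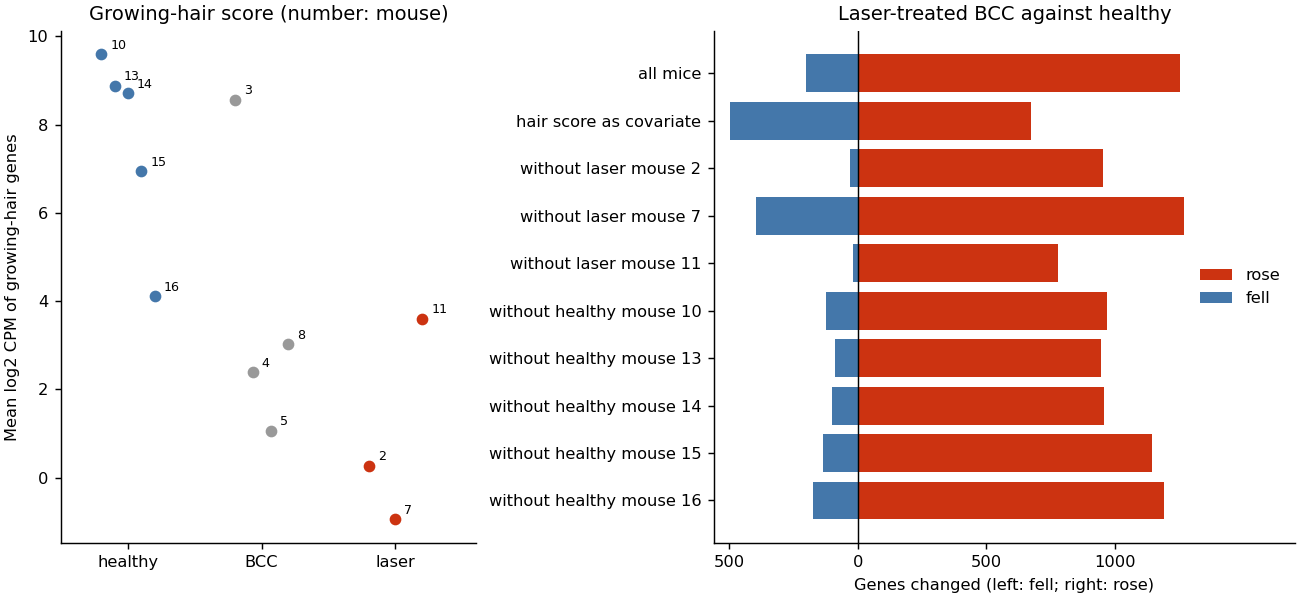
Left, growing-hair score (mean log2 CPM of 21 hair shaft genes) of each mouse, numbered; right, number of genes that rose (red) or fell (blue) in laser-treated BCC skin against healthy skin with all mice, with the score as a covariate and without each laser-treated or healthy mouse in turn. With libraries summed by mouse, the scores of the laser-treated mice lie below those of all healthy mice. The number that fell moves from 19 to 497 between settings.

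Hair shaft genes had a median of -6.31, yet just 2 of 21 fell, and the healthy mice spread widely. Of the 21, 11 did not overlap between the groups and all of these were lower. Over all genes tested, 11% did not overlap and were lower. The summed level was 1882 to 46490 CPM in healthy mice and 63.94 to 697.3 CPM in laser-treated mice. Krt71, an inner root sheath keratin gene, had 12540, 6958, 5803, 1429 and 637 CPM in healthy mice and 12.9, 0.884 and 207 CPM in laser-treated mice and did not pass (log2 fold change -6.21, adjusted p = 0.214). Dlx3, a transcription factor gene of the hair matrix, had 432, 378, 304, 105 and 121 CPM in healthy mice and 10.2, 23.4 and 15.7 CPM in laser-treated mice, below all of them. It fell by 4.03 (adjusted p = 0.0377), and the value was -0.95 (adjusted p = 0.474) with the score as a covariate. The call ended when any 1 laser-treated mouse (-4.37 to -3.78) or healthy mouse 10, 13 or 14 (-3.98 to -3.80) was left out, and in 11 of the 25 alternatives in all. Foxn1, whose loss makes mice nude, fell by 2.52 (adjusted p = 0.0496). It was not called without mouse 2, 7 or 11 (-2.85 to -2.25) or without healthy mouse 10, 13, 14 or 15 (-2.65 to -2.20). Its call ended under the covariate too (-0.51), and in 16 of the 25 alternatives in all. Dlx3 and Foxn1 are themselves among the 21 genes averaged into the score. A smaller value with the score as a covariate was therefore partly built in for both, and nothing is drawn from it. Of 10 melanocyte genes 0 changed, with a median of -5.89, and 9 did not overlap and were lower, such as Tyr of pigment synthesis with 59.7, 92.5, 99.7, 4.37 and 13.1 CPM in healthy mice and 1.08, 0.335 and 0.62 CPM in laser-treated mice (adjusted p = 0.11). These counts turned on the samples in the fit as well as on the tool. DESeq2's Wald test called all 21 hair shaft genes and 9 melanocyte genes lower, and edgeR with the laser-treated and healthy mice alone called 17 and 9. Without BCC mouse 3, whose score was among the healthy ones, edgeR called 3 hair shaft genes and 9 melanocyte genes lower.

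The Wnt list, a signal that drives hair growth, held 5 falls and 1 rise among 20 genes with a median of -0.995. With the growing-hair score as a covariate, 0 fell and the median was -0.41, and 1, 4 and 1 fell without mouse 2, 7 or 11 and 3 without healthy mouse 10, 13, 14 or 16. Lef1, the Wnt partner of the hair matrix, had 62.6, 70, 68.7, 13.9 and 24.8 CPM in healthy mice and 2.73, 2.41 and 2.4 CPM in laser-treated mice (fell by 4.25, SE 1.28, adjusted p = 0.05, just under the threshold before rounding). It was not called when any 1 laser-treated mouse (-4.31 to -4.23) or healthy mouse 10, 13, 14 or 16 (-4.42 to -4.08) was left out, or with the score as a covariate (-1.18), and in 16 of the 25 alternatives in all. Rspo3, a secreted Wnt amplifier, had 5.44, 3.85, 6.96, 3.65 and 4.16 CPM in healthy mice and 1.01, 1.01 and 1.63 CPM in laser-treated mice, below all of them. It fell by 1.97 (adjusted p = 0.00849), and the value was -1.60 with the covariate and -1.86 without mouse 2, neither of which was called. Tcf7 fell by 1.13 (adjusted p = 0.0121), while Axin2, the target most used to read Wnt activity, stood at -1.17 (adjusted p = 0.0823).

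The 10 largest falls of the comparison were Shh, Serpina3b, Gng13, Lef1, Alox8, Dlx3, Prss53, Gucy2e, Scube3 and Ascl4. None of these 10 calls held with the growing-hair score as a covariate, though Dlx3 is itself part of that score. Serpina3b, a protease inhibitor gene, was the 1 among them whose value did not shrink there. It had 12.4, 6.53, 5.82, 1.56 and 4.53 CPM in healthy mice and 0.0317, 0.335 and 0.155 CPM in laser-treated mice (fell by 5.13, SE 1.28, adjusted p = 0.0168), and the value was -5.78 (adjusted p = 0.0594) with the covariate. Its call ended without mouse 2 (-4.68) or mouse 11 (-5.06) as well, and the value was -5.87 without mouse 7. With libraries summed by mouse, the scores of the laser-treated and healthy mice did not overlap. The fit with the covariate therefore extrapolates and cannot separate hair phase from group. A single library of healthy mouse 16, at 0.0589, lay within the laser-treated range. Over all genes the covariate left 674 rises and 497 falls. It left 26 of 30 interferon genes, 12 of 15 neutrophil genes, 16 of 21 inflammatory genes, 13 of 18 macrophage genes, 14 of 26 repair matrix genes and 8 of 15 forming-muscle genes risen. It left 7 of 20 Fc receptor and complement genes, 1 of 16 endothelial genes and 1 of 13 early response factors risen, and of 12 dendritic and Langerhans cell genes 0 rose and 2 fell. It ended the calls of Krt1 (1.26), Cd28 (0.63), Il10 (2.41), Entpd1 (0.84), Cd79b (1.80), Itgax (1.16), Apln (1.17), Pdgfra (0.79) and Atf3 (1.34) as well. Under it 7 of 13 adipocyte and 9 of 14 adult muscle genes fell, of which none had fallen without it.

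Several lists besides melanocytes and adult muscle held no called gene. Adipocyte genes stood at a median of -0.88 in 13 tested, with summed levels of 1224 to 5809 CPM in healthy mice and 1494 to 2946 CPM in laser-treated mice. Cell cycle genes stood at a median of 0.21 in 18 tested, and the proliferation marker Mki67 had 36.2 to 135 CPM in healthy mice and 80.6, 63.6 and 206 CPM in laser-treated mice (adjusted p = 0.696). Cholesterol synthesis genes (14 tested), nerve and Schwann cell genes (10 tested) and antigen presentation genes were not called either. Of 12 sebaceous gland genes Mc5r fell by 1.53 (adjusted p = 0.0311), and not without mouse 2 (-1.21), mouse 11 (-1.37) or healthy mouse 10, 13 or 14 (-1.52 to -1.41) or with the covariate (adjusted p = 0.373), with -2.23 without mouse 7. Of the 5 largest falls in untreated BCC skin, Trp53 and Neu2 also fell in laser-treated skin. Neu2, a sialidase gene, fell by 1.96 (adjusted p = 0.0372), and not without mouse 2 (-1.94), mouse 11 (-1.76), healthy mouse 15 (-1.64) or healthy mouse 16 (-1.76), with -3.01 with the covariate and -1.49, not called, with the replicate block. Mtarc1 (-0.73, adjusted p = 0.458), Lrg1 (0.65, adjusted p = 0.33) and Gchfr (-1.11, adjusted p = 0.105) did not pass, though Gchfr did without mouse 7 (-1.56) and in DESeq2 (-1.14).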

How the data were processed

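RNA was selected with oligo dT and made into directional libraries per the labels' protocols. The authors deposited RSEM expected counts per gene. Bowtie2, RSEM and GRCm39 are named in the submitters' processing notes. Their versions, the annotation and the strand setting were not stated, so overlapping antisense genes may share reads. Of the values 3.42% are not whole, and all were rounded. The libraries of a mouse were summed, so the replicate is the mouse. In edgeR 4.0.16 (R 4.3.3), with TMM scaling and a filterByExpr filter that removed 2761 genes, all 16 mice of 4 groups entered 1 robust quasi-likelihood fit, with p-values adjusted by Benjamini and Hochberg over 15760 genes. The fit was also run on counts simulated with the same dispersion for all genes and without differences in hair phase. That run checks the code and says nothing on the calls in these data.

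The 35 lists hold 541 symbols, of which 513 were tested. The naming rule took Trp53, Ptch1, Gli1, Gli2 and Hhip, the 10 largest rises and falls among called genes without overlap and with at least 1 CPM in the higher group, up to 3 called members of each list by p, and the 5 largest rises and falls in untreated BCC skin. Not every gene that it takes is reported here. The comparison, lists and rule were chosen with earlier results of these data known. Where a group held 3 or fewer counts, a ratio of scaled counts with a floor of 3 counts over the group, or a 95% counting interval, replaced the fitted fold. Such floors and intervals cover counting error only. Promoters are RefSeq's for GRCm38.p6, matched by symbol for 12485 of the genes tested. Alternatives were DESeq2 1.42.0, limma 3.58.1 with voom, other scaling, filters and replicate units, a replicate block, a hair covariate and each laser-treated, healthy and untreated BCC mouse left out. Single vismodegib-treated mice were not left out.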

Additional observations from a re-analysis of the deposited data

Results flagged for a closer look

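The values of the named genes were checked within the healthy and the untreated BCC group for a single mouse far from the others, by Dixon's criterion at the 95% level. It marked 15 of 174 groups, where chance marks about 1 in 20. Laser-treated mice were too few for the check.

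In healthy skin, mouse 15 had the lowest Ptch1 (28.1 CPM, others 66.5 to 80.6) and the lowest Shh (1.33 CPM, others 11.5 to 14.3). Healthy mouse 16 had the highest Mymk (0.0578 CPM, others at most 0.0296), mouse 14 the highest Hba-a1 (317 CPM, others 108 to 133) and mouse 10 the highest Hmox1 (112 CPM, others 64.8 to 77.8). The Ptch1 value of mouse 15 lies close to those of laser-treated mice 7 and 11.

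In untreated BCC skin, mouse 3 stood apart in growing-hair genes. It had 15.9 CPM of Shh (others 0.218 to 1.15), 75.7 CPM of Lef1 (others 4.58 to 9.11), 395 CPM of Dlx3 (others 21.3 to 53.6), 90.9 CPM of Prss53 (others 6.03 to 8.53) and 36.9 CPM of Scube3 (others 6.16 to 7.26). Its growing-hair score of 8.57 lay among those of the healthy mice. BCC mouse 5 had the highest Cxcl2 (3.36 CPM, others 0.319 to 0.617), Mrgpra2b (0.218 CPM, others 0.0272 to 0.0588) and Mx1 (3.64 CPM, others 2.17 to 2.32). BCC mouse 8 had the highest Serpina3b (9.15 CPM, others 0.145 to 0.871) and BCC mouse 4 the highest Barhl2 (5.09 CPM, others 0.377 to 0.995).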

How the results depend on the processing

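Laser-treated against healthy skin gave 2487 changed genes in DESeq2 (846 fell), 3058 with all 19 libraries as replicates (1915 rose, 1143 fell), 2874 with the laser-treated and healthy mice alone (1177 fell), and 674 rises and 497 falls with the growing-hair score as a covariate. Leaving out each laser-treated, healthy or untreated BCC mouse gave 799 to 1799 changed genes, 780 to 1406 rises and 19 to 396 falls. Untreated BCC against healthy skin gave 931 in DESeq2, 981 with the hair covariate and 265 to 798 without single mice. Laser-treated against BCC skin gave 2001 in DESeq2, 2068 with 19 libraries and 597 to 1190 without single mice. The cause was not tested. Replicate numbers did not pair the mice: deviations of same-numbered laser-treated and healthy mice correlated at -0.167, -0.21 and 0.33. The replicate block gave 1565 changed genes (1313 rose, 252 fell). Of 78 named genes that were called, 46 were called under every alternative that tested them. A few named genes were not tested in all 25 alternatives. Of the 2168 values of named genes, 0 changed sign where the gene was called in either fit. Treating the libraries of mouse 16 as 2 mice and leaving out each BCC mouse were added after seeing the data. With 3 laser-treated mice, small changes were not detectable.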
